A study of Homo sapiens with 6 samples.

Results

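The genes of the hypoxia response and of glycolysis were followed across the ovarian carcinoma lines Caov-3 and SKOV-3 and their 3 treatments. A list of 40 genes was used, and a gene was represented by its brightest probe set among those that carry its symbol alone. Of the 40 genes, 38 had such a probe set (91 in all), CA9 and SLC16A3 were not analysed here, and all 38 were among the 12290 genes that passed the filter on low signals. Both lines were given 30 ng/ml of the cytokine IL-6 for 1 h following 4 h with siltuximab (CNTO328, an antibody against IL-6), IL-6 alone for 1 h, or neither. Each of the 6 groups was 1 Affymetrix U133 Plus 2.0 array of RNA pooled from 3 flasks, so that no group had a replicate. The 2 lines are 2 established cultures and stand for no wider class of tumours. No sample with siltuximab alone was analysed here, and no siltuximab dose is given in the sources used here.

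Cells short of oxygen keep the alpha subunits of the hypoxia-inducible factors, HIF1A and EPAS1 (HIF-2 alpha), from being destroyed. With oxygen, prolyl hydroxylases of the EGLN family mark these subunits and the ubiquitin ligase subunit VHL binds them for degradation, so that the factors are set mainly at the protein level, which an RNA array does not measure. Stable alpha subunits pair with ARNT and bind the core letters ACGTG or GCGTG near genes of glucose uptake, glycolysis, acid balance, mitochondrial turnover and collagen modification. Many carcinoma cells also run glycolysis with oxygen present, and STAT3, through which IL-6 signals, can raise HIF1A transcription. The study asked what siltuximab does to gene expression induced by IL-6 in these cells.

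The trimmed mean signal of the arrays was 500.06 to 500.07, and precision is limited by how few arrays there were. Keratins KRT8 and KRT18 and the surface protein EPCAM were at or above the array median on all 6 arrays, while E-cadherin (CDH1) and KRT19 were so on the Caov-3 arrays alone, at 11.0 to 27.5 and 4.37 to 57.9 in SKOV-3. Of 5 ovarian carcinoma markers PAX8 and FOLR1 were at or above the median on all 6 arrays and WT1 on none, while MUC16 was at 593 to 859.9 in Caov-3 and 2.92 to 5.90 in SKOV-3 and SOX17 at 77.8 to 132 in Caov-3 and 19.2 to 32.0 in SKOV-3. Of 5 leukocyte markers PTPRC (CD45) and CD3E were below the median on every array, CD79A was above it on all 6, CD14 on 4 and LCP1 on 2, and the summed signal of the list was 884 to 970.1 in Caov-3 and 367 to 740.0 in SKOV-3. Of 5 fibroblast and endothelium markers COL1A2, PDGFRB and VWF were below the median on every array, and COL1A1 and PECAM1 above it on all 6. That list summed to 4763 to 5781 in Caov-3 and 441 to 579.8 in SKOV-3, COL1A1 alone being at 3802 to 4826 in Caov-3 and 217 to 339 in SKOV-3, and the part of these genes in the results was not tested. For beta-actin (ACTB), a transcript whose 5' and 3' ends have control probe sets, the 5' signal over the 3' one was 0.494 in Caov-3 cells with IL-6 and 0.643 to 0.767 on the other 5.

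The first comparison asked how the lines differed in these genes. In Caov-3 the mitophagy receptor BNIP3, the lactate dehydrogenase subunit LDHB, the glucose transporter SLC2A3 and the enolase ENO2 were far higher than in SKOV-3, and the vasodilator peptide gene ADM, the carbonic anhydrase CA12, the hexokinase HK2 and the enolase ENO1 were lower. Of the 38 genes, 25 were higher and 6 lower in Caov-3 at an adjusted p under 0.05, with the two-sided test of limma fitted over all genes with treatment as a block. That share of 81.6% stands beside 70.8% of all 12290 genes, among which 38.6% were higher and 32.3% lower. At least 2-fold apart and called were 18 of the 38, or 47.4%, against 34.7% of all genes, with 14 higher in Caov-3 (20.1% of all genes) and 4 lower (14.6%). The 3 Caov-3 arrays did not overlap the 3 SKOV-3 arrays for 32 of the 38 genes, or 84.2%, against 74.1% of all genes. The median log2 difference was 0.75 over the 38 genes and 0.07 over all genes. The 3 arrays of a line are 3 treatments and not replicates, so the error of these tests is how far treatment effects differed between the lines. The 3 genes EGLN3, BNIP3 and LDHB passed the filter on low signals through the Caov-3 arrays alone, and therefore had to differ, so that no test is given for them. BNIP3 and LDHB are among the 18 genes above, and all 3 are among the 32 without overlap. Those shares were not recomputed without them, and the shares of all genes likewise hold 1565 genes that passed through 1 line alone. Of the other 35 of the 38 genes 22 were higher and 6 lower, or 80.0%, against 68.1% of the 10725 genes that likewise reached the median in both lines. Without that filter 23 were higher and 5 lower.

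**Figure D1:**
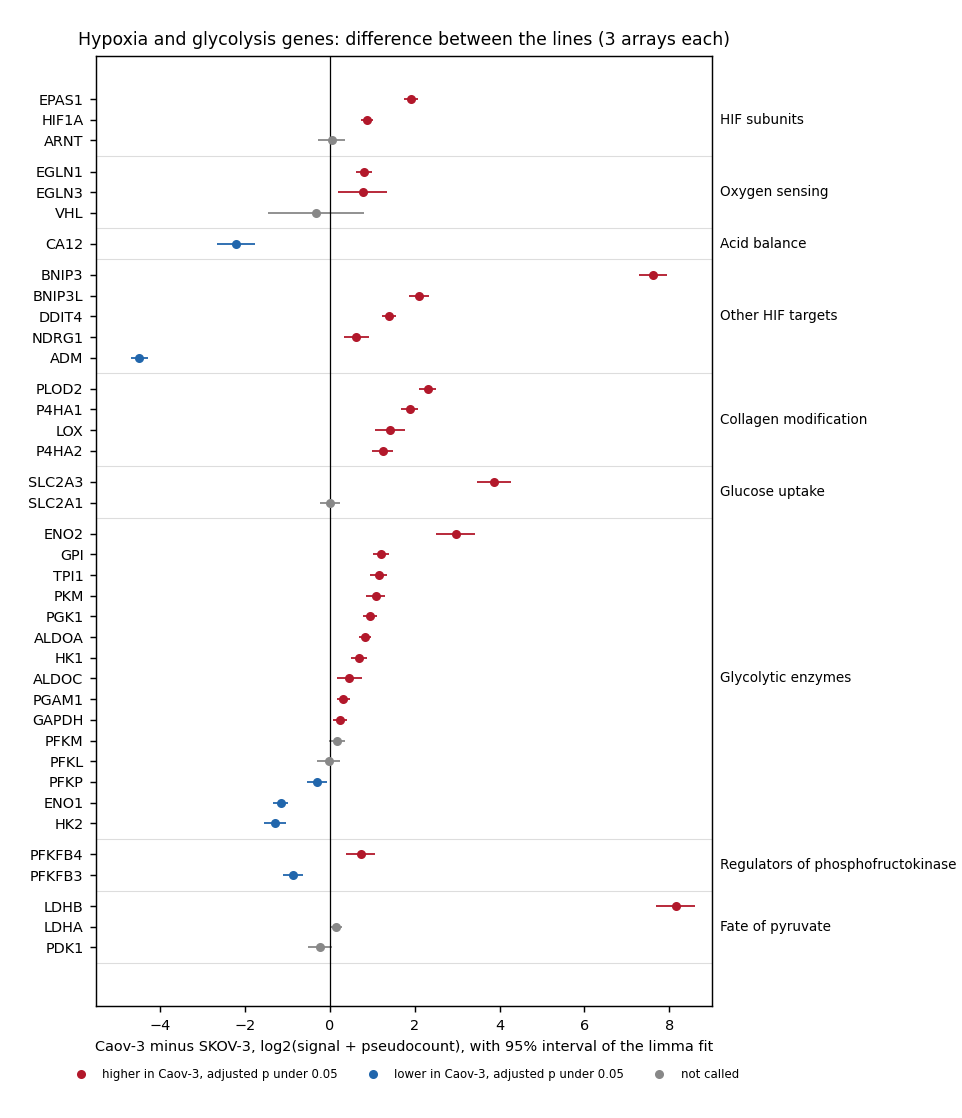
Difference of each of the 38 genes between the lines, grouped by role. Points are Caov-3 minus SKOV-3 on the log2(signal + pseudocount) scale and bars are the 95% interval of the limma fit (3 arrays of each line). LDHB and BNIP3 lie farthest to the right at 8.15 and 7.61, and ADM farthest to the left at -4.49. EGLN3, BNIP3 and LDHB passed the filter through the Caov-3 arrays alone and had to differ, so that their bars and call colours are no test. The BNIP3 and LDHB points also depend on the pseudocount.

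The letters around the transcription starts of 6 of these genes are shown. LDHB, BNIP3, ENO2 and ADM lay far apart between the lines, ENO1 is shown beside its isoform, and PGK1 is a textbook HIF target. Each window runs from 250 bases before to 50 after a RefSeq start (GRCh38.p14), 5' to 3', and capitals mark ACGTG or GCGTG on either strand, with matches of the other strand shown as their reverse complement. A palindromic core counts on both strands.
LDHB promoter window, chr12:21657793-21658092, minus strand: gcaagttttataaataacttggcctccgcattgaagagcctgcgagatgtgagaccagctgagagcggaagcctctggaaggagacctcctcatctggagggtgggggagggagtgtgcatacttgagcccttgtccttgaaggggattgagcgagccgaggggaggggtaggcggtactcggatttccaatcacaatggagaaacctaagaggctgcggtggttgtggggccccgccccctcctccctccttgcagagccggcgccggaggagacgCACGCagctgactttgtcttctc
BNIP3 promoter window, chr10:131981874-131982173, minus strand: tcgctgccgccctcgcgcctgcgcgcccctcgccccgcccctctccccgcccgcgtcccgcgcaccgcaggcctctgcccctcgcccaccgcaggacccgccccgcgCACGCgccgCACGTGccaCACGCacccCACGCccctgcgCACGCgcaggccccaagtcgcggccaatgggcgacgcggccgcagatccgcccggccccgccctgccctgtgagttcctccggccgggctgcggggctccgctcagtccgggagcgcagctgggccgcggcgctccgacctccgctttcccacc
ENO2 promoter window, chr12:6914330-6914629, plus strand: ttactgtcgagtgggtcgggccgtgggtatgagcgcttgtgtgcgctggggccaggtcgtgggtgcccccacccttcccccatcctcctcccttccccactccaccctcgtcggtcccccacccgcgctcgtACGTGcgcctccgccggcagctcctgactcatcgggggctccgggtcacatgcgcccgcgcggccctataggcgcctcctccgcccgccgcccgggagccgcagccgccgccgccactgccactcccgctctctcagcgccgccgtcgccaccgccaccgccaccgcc
ADM promoter window, chr11:10304823-10305122, plus strand: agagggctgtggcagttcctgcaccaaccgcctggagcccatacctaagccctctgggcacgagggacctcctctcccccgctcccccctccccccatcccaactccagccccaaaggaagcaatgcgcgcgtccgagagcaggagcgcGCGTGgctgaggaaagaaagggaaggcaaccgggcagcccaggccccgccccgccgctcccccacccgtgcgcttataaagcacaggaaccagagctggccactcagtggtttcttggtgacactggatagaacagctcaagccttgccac
ENO1 promoter window, chr1:8878637-8878936, minus strand: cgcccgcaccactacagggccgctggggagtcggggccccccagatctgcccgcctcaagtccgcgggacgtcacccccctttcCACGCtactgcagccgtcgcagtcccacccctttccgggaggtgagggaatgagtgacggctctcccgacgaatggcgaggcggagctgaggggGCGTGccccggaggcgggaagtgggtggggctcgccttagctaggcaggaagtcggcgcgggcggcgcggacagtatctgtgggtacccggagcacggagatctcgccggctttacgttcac
PGK1 promoter window, chrX:78103998-78104297, plus strand: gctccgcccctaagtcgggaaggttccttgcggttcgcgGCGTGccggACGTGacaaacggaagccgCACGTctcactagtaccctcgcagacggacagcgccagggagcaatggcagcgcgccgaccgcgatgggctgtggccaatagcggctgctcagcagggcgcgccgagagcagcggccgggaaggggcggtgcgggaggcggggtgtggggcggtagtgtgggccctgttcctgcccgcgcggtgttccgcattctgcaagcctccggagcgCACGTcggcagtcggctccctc
BNIP3 had 6 matches, PGK1 4, ENO1 2, and LDHB, ENO2 and ADM 1 each. Windows were found for 34 of the 38 genes (59 windows), and 40 of the 59, or 67.8%, held a match, against 48.4% of all 35116 windows of the table. Windows of the same gene can overlap and are counted apart, so these are shares of windows and not of genes. The difference between them was not tested. A match describes letters and is not a bound site, and further windows of a gene can differ, such as the LDHA windows with 6 and 1.

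Among the factor subunits, EPAS1 had signals of 14111, 14056 and 14575 on the Caov-3 arrays and 3572, 3902 and 3824 on the SKOV-3 arrays (in each line in the order siltuximab plus IL-6, IL-6, untreated, as in all that follows). The lowest Caov-3 array was far above the highest SKOV-3 array, with a log2 difference of 1.92 (SE 0.0682, limma adjusted p 1.16e-06). HIF1A had 18601, 21852 and 19408 on the Caov-3 arrays and 10172, 11714 and 10602 on the SKOV-3 arrays. Its groups did not overlap either, with a log2 difference of 0.88 (SE 0.0605, limma adjusted p 1.81e-05). ARNT, the shared beta subunit, had 399, 459 and 451 on the Caov-3 arrays and 416, 439.7 and 413 on the SKOV-3 arrays. The ARNT groups overlapped and the gene was not called, at a log2 difference of 0.04 (95% interval -0.27 to 0.35). Its probe sets disagreed, since those further ones at or above the median on all 6 arrays gave 0.99, 0.17 and -0.03. The one at 0.99 had 250, 309 and 275 on the Caov-3 arrays and 129, 137 and 126 on the SKOV-3 arrays, without overlap.

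Of the oxygen-sensing genes, the prolyl hydroxylase EGLN1 had 5083, 4998 and 4435 on the Caov-3 arrays and 2663, 2982 and 2607 on the SKOV-3 arrays. It was higher in Caov-3 without overlap, with a log2 difference of 0.81 (SE 0.0786, limma adjusted p 8.91e-05). EGLN3, a hydroxylase gene that is itself a HIF target, had 123, 139 and 165 on the Caov-3 arrays and 78.5, 63.3 and 87.1 on the SKOV-3 arrays. The groups did not overlap, with a mean log2 difference of 0.77, which is a description. EGLN3 was below the median on all 3 SKOV-3 arrays. VHL had 335, 58.0 and 417 on the Caov-3 arrays and 219.6, 283 and 298 on the SKOV-3 arrays. The Caov-3 IL-6 array, the one with the low ACTB ratio, was far below the others, and VHL was not called at a log2 difference of -0.32 (95% interval -1.46 to 0.82). Without that array VHL was higher in Caov-3 by 0.52 (SE 0.184, limma adjusted p 0.0349), and without the SKOV-3 IL-6 array the same difference was not called (adjusted p 0.0648).

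The genes of acid balance and the other HIF targets gave the widest spread. BNIP3, whose protein sits on mitochondria and marks them for autophagy, had 5788, 6675 and 5893 on the Caov-3 arrays and 11.5, 14.7 and 16.5 on the SKOV-3 arrays. It stood at percentiles 96.9 to 97.2 of named probe sets on the Caov-3 arrays, against 17.2 to 20.01 on the SKOV-3 arrays. The SKOV-3 signals lie below the pseudocount of 17.1, so that the mean log2 difference of 7.61 depends on that pseudocount and is no measured fold. Its relative BNIP3L (NIX), with the same role, had 2838, 3236 and 2763 on the Caov-3 arrays and 686, 781 and 559 on the SKOV-3 arrays. It was higher in Caov-3 with a log2 difference of 2.11 (SE 0.0982, limma adjusted p 3.49e-06) but well measured in SKOV-3 too, above the median on all 3 arrays.

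ADM, which encodes the secreted peptide adrenomedullin, had 371, 389.8 and 406 on the Caov-3 arrays and 8899.6, 8723 and 9656 on the SKOV-3 arrays. The groups lay 22.4-fold apart, higher in SKOV-3, with a log2 difference of -4.49 (SE 0.0833, limma adjusted p 1.35e-07). It stood at place 58 from the bottom of all genes. CA12, a membrane carbonic anhydrase that acidifies the surroundings of a cell, had 149, 83.9 and 106 on the Caov-3 arrays and 586, 546 and 583 on the SKOV-3 arrays. It was lower in Caov-3 with a log2 difference of -2.21 (SE 0.184, limma adjusted p 4.29e-05), and 4 further probe sets, which reached the median in SKOV-3 alone and so had to differ, gave -3.95 to -1.73. DDIT4 (REDD1), a stress-induced inhibitor of mTORC1, had 5978, 4870.2 and 5583 on the Caov-3 arrays and 2259, 1882 and 2062 on the SKOV-3 arrays, higher in Caov-3 with a log2 difference of 1.40 (SE 0.0736, limma adjusted p 5.7e-06). NDRG1, a gene induced by hypoxia in many cell types, differed by 0.63 (adjusted p 0.00346), with 1839, 2488 and 1803 on the Caov-3 arrays and 1309, 1257 and 1344 on the SKOV-3 arrays.

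All 4 genes of collagen modification were higher in Caov-3 (38.6% of all genes were) and none overlapped between the lines (74.1% of all genes did not). PLOD2, the lysyl hydroxylase that acts on the ends of collagen chains, had 8969, 7166 and 8353 on the Caov-3 arrays and 1666, 1565 and 1668 on the SKOV-3 arrays. It was 4.94-fold higher in Caov-3, with a log2 difference of 2.30 (SE 0.0806, limma adjusted p 1.06e-06). P4HA1, a catalytic subunit of collagen prolyl 4-hydroxylase, had 4206, 4143 and 4348 on the Caov-3 arrays and 1207, 1055 and 1141 on the SKOV-3 arrays, a log2 difference of 1.89 (adjusted p 2.9e-06). Its partner isoform P4HA2 had 3405, 3316 and 3300.4 on the Caov-3 arrays and 1219, 1443 and 1552 on the SKOV-3 arrays, a log2 difference of 1.247 (adjusted p 3.72e-05). A further P4HA2 probe set past the filter was at -0.03, and with the mean of all its probe sets P4HA2 was not called, at 0.32 (adjusted p 0.108). LOX, the secreted enzyme that crosslinks collagen, had 458, 549.7 and 467 on the Caov-3 arrays and 159, 198 and 164 on the SKOV-3 arrays, a log2 difference of 1.41 (adjusted p 0.00013).

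Of the glucose transporters, SLC2A3 alone was called. SLC2A3 (GLUT3), a high-affinity transporter, had 7626, 6051 and 8826 on the Caov-3 arrays and 420.0, 596 and 482 on the SKOV-3 arrays. It was 14.5-fold higher in Caov-3, with a log2 difference of 3.86 (SE 0.17, limma adjusted p 2.76e-06), and its 2 further probe sets gave 3.75 and 3.07. All SLC2A3 probe sets end in _x_at or _s_at and so can detect related sequences. SLC2A1 (GLUT1), the widespread transporter, had 1077, 1491 and 1350.2 on the Caov-3 arrays and 1209, 1385 and 1279.8 on the SKOV-3 arrays. Its groups overlapped and it was not called, at a log2 difference of 0.01 (95% interval -0.23 to 0.24).

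Among the 15 glycolytic enzymes 10 were higher and 3 lower in Caov-3, or 86.7% called against 70.8% of all genes, and isoforms of the hexokinase and of the enolase step stood on opposite sides. At the first step HK1, the hexokinase of most tissues, was higher by 0.70 (adjusted p 0.000187), whereas HK2, the inducible hexokinase of many tumours, had 825, 1054 and 721 on the Caov-3 arrays and 1907, 2371 and 2105 on the SKOV-3 arrays. HK2 was lower in Caov-3 with a log2 difference of -1.29 (SE 0.109, limma adjusted p 4.45e-05). At the enolase step ENO1, the ubiquitous form, had 10185, 11036 and 10875 on the Caov-3 arrays and 23761, 22089 and 25899 on the SKOV-3 arrays. ENO1 was likewise lower in Caov-3 with a log2 difference of -1.16 (SE 0.0734, limma adjusted p 1.27e-05), and 2.23-fold higher in SKOV-3. ENO2, the form best known from neurons, had 5017, 6457 and 4617 on the Caov-3 arrays and 709.7, 516 and 803 on the SKOV-3 arrays. ENO2 was 7.8-fold higher in Caov-3, with a log2 difference of 2.96 (SE 0.195, limma adjusted p 1.51e-05). With the probe sets named _x_at or _s_at dropped, since these can detect related sequences, ENO1 was at -0.62 (adjusted p 0.0623).

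The other enzymes of the chain were mostly higher in Caov-3. GPI, which turns glucose 6-phosphate into fructose 6-phosphate, had 10149, 11368 and 11565 on the Caov-3 arrays and 4929.5, 4486 and 4915 on the SKOV-3 arrays, a log2 difference of 1.20 (adjusted p 1.59e-05). TPI1, the triose phosphate isomerase, had 25167, 26112 and 24368 on the Caov-3 arrays and 12049.6, 10134 and 11962 on the SKOV-3 arrays, a log2 difference of 1.15 (adjusted p 2.21e-05). PKM, the pyruvate kinase of most dividing cells, had 15163, 15503 and 15714 on the Caov-3 arrays and 7912, 6163 and 7959 on the SKOV-3 arrays, a log2 difference of 1.08 (adjusted p 4.5e-05). None of these overlapped between the lines. PGK1, the first ATP-yielding step, had 22946, 24952 and 25814 on the Caov-3 arrays and 12952, 12933 and 12159 on the SKOV-3 arrays, a log2 difference of 0.95 (adjusted p 2.7e-05). The aldolase ALDOA had 26744, 23659 and 29591 on the Caov-3 arrays and 14970.0, 13335 and 16793 on the SKOV-3 arrays, a log2 difference of 0.83 (adjusted p 2.09e-05). Its isoform ALDOC had 717, 662 and 716 on the Caov-3 arrays and 542, 427 and 543 on the SKOV-3 arrays, a log2 difference of 0.46 (adjusted p 0.0108). These too were higher in Caov-3 without overlap, as was the mutase PGAM1 by 0.32 (adjusted p 0.00385). GAPDH had 39204, 36601 and 47621 on the Caov-3 arrays and 30174, 32804 and 42288 on the SKOV-3 arrays. Its groups overlapped, and the small difference of 0.24 (adjusted p 0.017) lost its call under several alternatives. Of the phosphofructokinases, which commit sugar to glycolysis, PFKP had 5262, 6704 and 6320.4 on the Caov-3 arrays and 7402, 6784 and 8229.7 on the SKOV-3 arrays. PFKP was lower in Caov-3 at -0.30 (adjusted p 0.0334). That call was lost without the untreated array of either line, at -0.25, or the siltuximab plus IL-6 array of either, at -0.20. It was also lost without the filter (adjusted p 0.0513) and with a prior variance without trend (adjusted p 0.108). PFKL had 612, 547 and 689 on the Caov-3 arrays and 609, 553 and 719 on the SKOV-3 arrays and overlapped, at -0.02 (95% interval -0.29 to 0.24). PFKM was higher on all 3 Caov-3 arrays than on any SKOV-3 array but not called, at 0.17 (95% interval -0.01 to 0.36), and was called after quantile normalization (adjusted p 0.0459) and cyclic loess (0.0307).

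The bifunctional regulators that set fructose 2,6-bisphosphate, an activator of phosphofructokinase, stood on opposite sides. PFKFB3 had 570.4, 621 and 617 on the Caov-3 arrays and 1061, 1157 and 1127 on the SKOV-3 arrays, lower in Caov-3 with a log2 difference of -0.87 (SE 0.102, limma adjusted p 0.000231). PFKFB4 was higher in Caov-3 by 0.73 (adjusted p 0.00314), with 607, 500.5 and 435 on the Caov-3 arrays and 308, 311 and 285 on the SKOV-3 arrays, but was not called with the mean of its probe sets (0.38, adjusted p 0.105). Neither gene's arrays overlapped between the lines.

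At the end of the pathway LDHB, the lactate dehydrogenase subunit that favours turning lactate into pyruvate, had 14707, 15685 and 17081 on the Caov-3 arrays and 21.7, 67.1 and 35.8 on the SKOV-3 arrays. It stood at percentiles 99.1 to 99.3 of named probe sets in Caov-3 and 24.6 to 42.3 in SKOV-3. The mean log2 difference of 8.15 depends on the pseudocount and is no measured fold, since all 3 SKOV-3 arrays are dim. Its further probe set had 21418, 22359 and 22761 in Caov-3 and 3.09, 18.2 and 5.92 in SKOV-3, likewise without overlap, and both probe sets end in _x_at. LDHA, the subunit that favours making lactate, had 26970.4, 26224 and 32069 on the Caov-3 arrays and 23591, 24307 and 28888 on the SKOV-3 arrays. Its groups overlapped, and it was not called at a log2 difference of 0.15 (95% interval 0.01 to 0.29) and a limma adjusted p of 0.0529. LDHA was called under the 75th percentile filter (adjusted p 0.0411), and also without the SKOV-3 IL-6 array, at 0.17. PDK1, a kinase that inhibits pyruvate dehydrogenase, had 495, 589 and 619 on the Caov-3 arrays and 650.0, 657 and 693 on the SKOV-3 arrays and was not called either, at -0.23 (95% interval -0.51 to 0.05).

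**Figure D2:**
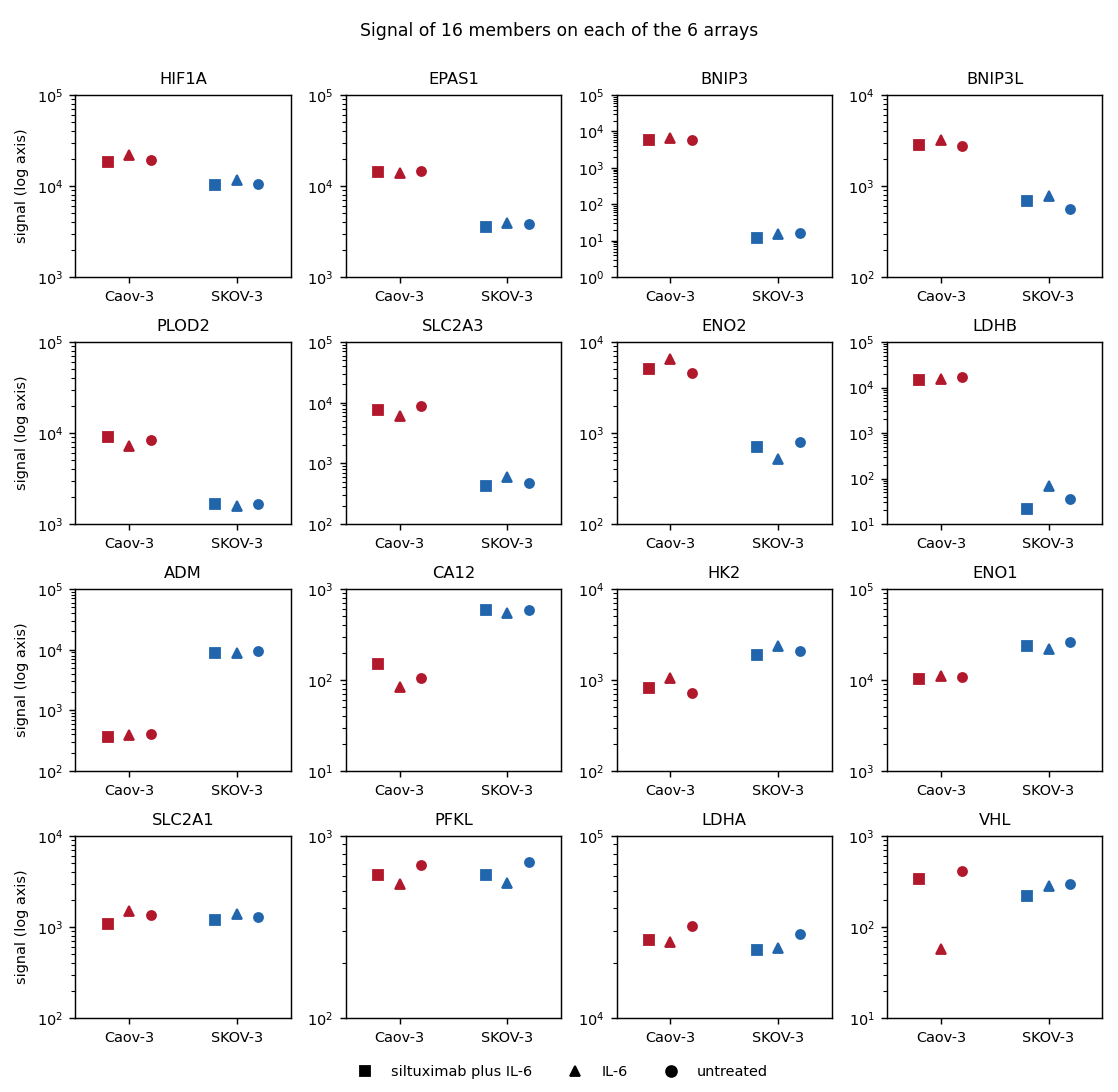
Signal of 16 of the genes on each of the 6 arrays, on a log axis with its own range in each panel. Caov-3 is left and SKOV-3 right, and the marker gives the treatment. LDHB is at 14707 or more on every Caov-3 array and at 67.1 or less on every SKOV-3 array, and the VHL point at 58.0 is the Caov-3 IL-6 array.

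How far the line difference held across probe sets was asked next, since further probe sets read other parts of a transcript. The 38 genes had 53 further probe sets, and 46 of them lay on the side of the brightest. Of the 39 that passed the filter, 37 did, the exceptions being 1 probe set of ARNT at -0.03 and 1 of P4HA2 at -0.03. Of these 39, however, 12 passed through 1 line alone, which set their side, and of the other 27 it was 25 that lay on the side of the brightest. Below the filter the 5 exceptions were dim probe sets of EPAS1, CA12, P4HA1, P4HA2 and PDK1. For 12 of the genes, among them HIF1A, ADM, ENO2 and LDHA, there was no further probe set.

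**Figure D3:**
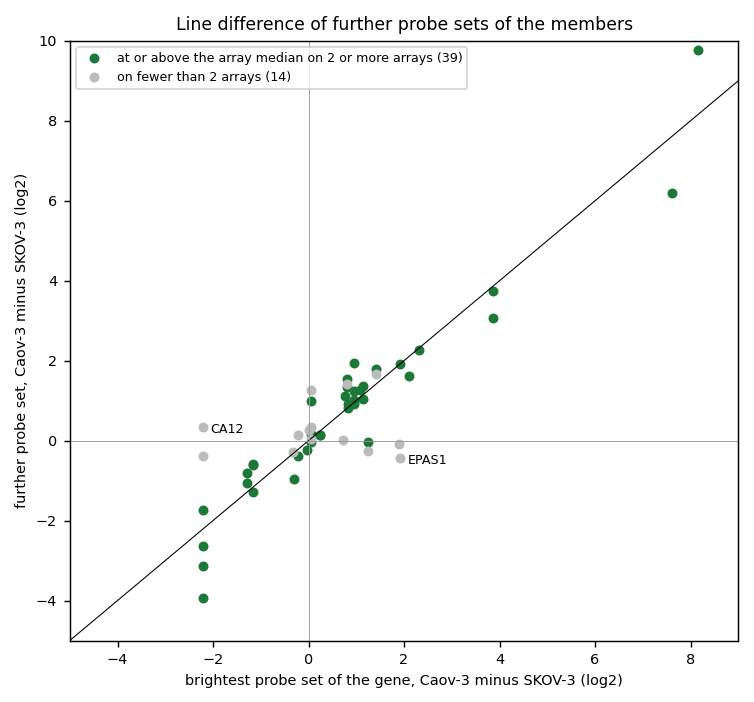
Line difference of each of the 53 further probe sets against that of the brightest probe set of its gene, both Caov-3 minus SKOV-3 on the log2(signal + pseudocount) scale. The line marks equality. Of the 39 probe sets past the filter 37 have the sign of the brightest, 12 of the 39 having passed through 1 line alone, and named points lie more than 2 from it.

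The 5 tested genes on each side of the 18 genes called at least 2-fold apart, BNIP3 and LDHB included, were read from the RefSeq order. This description was chosen after the values were seen. Over all genes 38.6% were higher in Caov-3 and 32.3% lower. Around ENO2 on chromosome 12 all 10 neighbours, TPI1 among them, were higher, with a median log2 difference of 1.28. Around SLC2A3 on the same chromosome 8 of 10 were higher and 1 lower, with a median of 1.30. Around LDHB, also on chromosome 12, none of the 10 was higher and 7 were lower, with a median of -0.66. DDIT4 and P4HA1 are neighbours on chromosome 10 that share 6 of their 10, and 7 of the 10 of each were higher and none lower. Other surroundings were mixed, with 3 higher and 4 lower around EPAS1, 3 higher and 4 lower around CA12, 3 higher and 3 lower around PLOD2, 4 higher and 2 lower around LOX, 4 higher and 1 lower around BNIP3, 5 higher and 3 lower around ENO1 and 5 higher and 5 lower around GPI. The remaining counts were 1 higher and 7 lower around ADM, 5 higher and 1 lower around BNIP3L, 7 higher and 3 lower around P4HA2, 7 higher and 1 lower around TPI1 and 7 higher and 1 lower around PKM. TPI1 and ENO2 count each other and share USP5, SPSB2, DSTNP2, LRRC23 and ATN1, so that their surroundings are not separate. LDHB, by the counts above, and HK2 went against their surroundings. Of the 10 neighbours of HK2, 9 were higher in Caov-3 and none lower. Copy number was not measured here.

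The further genes of oxygen sensing and glucose metabolism outside the 40 were counted too, from a list of 54. Of these, 44 passed the filter, 26 were higher and 11 lower in Caov-3, which at 84.1% stands beside 70.8% of all genes. The counts hold genes below the median on every array of a line, which had to differ. Such were IGFBP3 (18.2 to 40.5 in SKOV-3) and BHLHE41 (26.0 to 39.1 in Caov-3), and no share without such genes is given. PDK4, another kinase of pyruvate dehydrogenase, lay 3.12 higher in Caov-3. Its SKOV-3 signals of 71.1, 84.4 and 74.4 were all below the median, so that it had to differ. Among the higher were also the gluconeogenic FBP1 at 3.22, the muscle enolase ENO3 at 3.68 and HIF1AN, the hydroxylase that blocks HIF coactivator binding, at 0.92. Among the lower were CITED2, a competitor of HIF for its coactivator, at -1.97 and STC2, a secreted HIF target, at -1.86. VEGFA, the angiogenic HIF target, was not called, at -0.14. Other HIF targets of the list were higher, such as BHLHE40 at 2.29, ANKRD37 at 2.02, AK4 at 1.13 and KDM3A at 0.57.

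The second comparison asked what 1 h of IL-6 did to these genes. PFKL, ALDOA and GAPDH were the 3 of 34 genes measured in both lines that stood lower by at least 0.32 on the log2 scale with IL-6 in each line, where 2.14% of 10537 genes did. None was as much higher in both (3.22% of all genes), and ENO2 alone stood opposite ways (4.38%). GAPDH was at 36601 with IL-6 against 47621 untreated in Caov-3, or -0.38 on the log2 scale, and at 32804 with IL-6 against 42288 untreated in SKOV-3, or -0.37 on the log2 scale. Its 2 further probe sets lay at -0.50 and -0.45 in Caov-3 and at -0.47 and -0.45 in SKOV-3. ALDOA was at 23659 with IL-6 against 29591 untreated in Caov-3, or -0.32 on the log2 scale, and at 13335 with IL-6 against 16793 untreated in SKOV-3, or -0.33 on the log2 scale. Of its further probe sets 1 gave -0.32 in Caov-3 and -0.21 in SKOV-3, and the other went the other way, at 0.19 in Caov-3 and 0.12 in SKOV-3. PFKL was at 547 with IL-6 against 689 untreated in Caov-3, or -0.32 on the log2 scale, and at 553 with IL-6 against 719 untreated in SKOV-3, or -0.37 on the log2 scale, with -0.54 in Caov-3 and -0.46 in SKOV-3 from its further probe set. In the limma fit over both lines the differences were -0.37 for GAPDH, -0.33 for ALDOA and -0.35 for PFKL, and none of the 38 genes was called, as were none of all 12290 genes (0%). The smallest adjusted p of the 38 was 0.335, and 6 of the 38 and 1182 of all genes had an unadjusted p under 0.05. The ALDOA and PFKL folds in Caov-3 lie at the edge of 0.32, and none of the 3 genes was past it in both lines after quantile normalization or cyclic loess. The quantile-normalized folds were -0.13 in Caov-3 and -0.11 in SKOV-3 for GAPDH, -0.18 in Caov-3 and -0.22 in SKOV-3 for ALDOA, and -0.27 in Caov-3 and -0.39 in SKOV-3 for PFKL.

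Within a line, where a fold is 1 array over 1 array with no replicate check, few of the genes lay far from untreated cells with IL-6. In Caov-3 none of 37 genes was at least 1.5-fold higher (5.04% of all genes) and VHL alone was as much lower (6.16% of all genes). VHL, the substrate receptor for HIF alpha subunits, was at 58.0 with IL-6 against 417 untreated in Caov-3, or -2.53 on the log2 scale. Its further probe set, which is below the median of each array, gave -0.66. HK2 had the largest fold upwards, at 1054 with IL-6 against 721 untreated in Caov-3, or 0.54 on the log2 scale, and its further probe sets gave 0.03 and -0.77. ENO2 was at 0.48, NDRG1 at 2488 with IL-6 against 1803 untreated in Caov-3, or 0.46 on the log2 scale, and LOX at 0.23. SLC2A3 was at 6051 with IL-6 against 8826 untreated in Caov-3, or -0.54 on the log2 scale, with -0.56 and -0.64 from its further probe sets. All of these folds use the Caov-3 IL-6 array, with its ACTB ratio of 0.494, whose part in them was not tested. The median log2 fold was 0.01 over the 37 genes and 0.08 over all genes.

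In SKOV-3 none of 35 genes was at least 1.5-fold higher with IL-6 (3.02% of all genes) and ENO2 alone was as much lower (4.59% of all genes). ENO2 was at 516 with IL-6 against 803 untreated in SKOV-3, or -0.62 on the log2 scale, opposite to Caov-3. PKM was at 6163 with IL-6 against 7959 untreated in SKOV-3, or -0.37 on the log2 scale, with -0.13 from its further probe set. The largest fold upwards was that of BNIP3L at 781 with IL-6 against 559 untreated in SKOV-3, or 0.47 on the log2 scale, while its further probe set gave -0.13. SLC2A3 was at 596 with IL-6 against 482 untreated in SKOV-3, or 0.29 on the log2 scale, again opposite to Caov-3, and LOX and EGLN1 were at 0.25 and 0.19. HIF1A was at 0.17 in Caov-3 and 0.14 in SKOV-3, and PFKFB3 at 0.01 in Caov-3 and 0.04 in SKOV-3. LDHA was at -0.29 in Caov-3 and -0.25 in SKOV-3, and PDK1 at -0.07 in both. The median was -0.09 over the 35 genes and -0.05 over all genes, where the robust SD of all folds was 0.262.

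**Figure D4:**
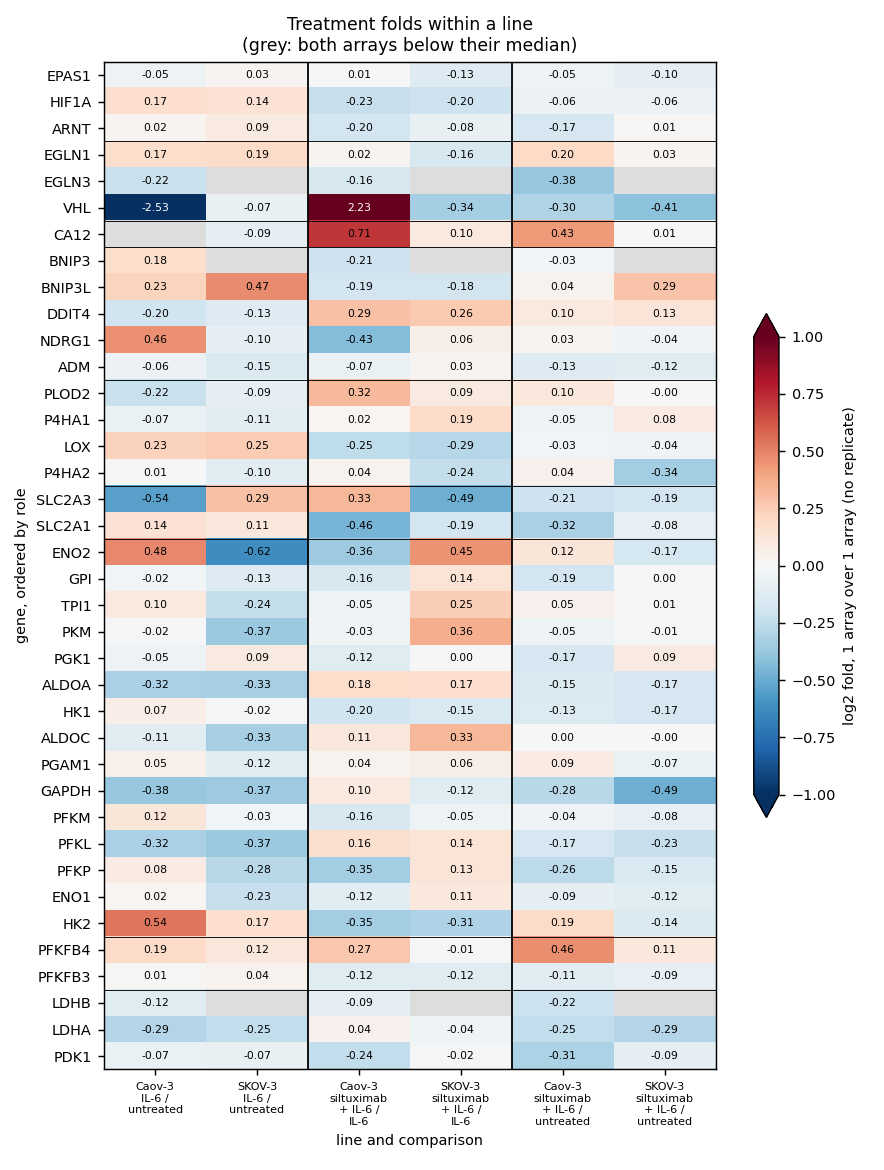
Log2 fold of each of the 38 genes in the 3 treatment comparisons of each line, 1 array over 1 array, with genes ordered by role. Colour runs from -1 to 1 and grey marks genes below the median on both arrays. VHL in Caov-3 stands at -2.53 with IL-6 and 2.23 with siltuximab plus IL-6 over IL-6, both of which use the same IL-6 array.

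The third comparison set siltuximab plus IL-6 against IL-6 and so asked what the antibody did to the response. It shares the IL-6 arrays with the second comparison, so that a high or low IL-6 array moves both in opposite ways. In Caov-3 VHL and CA12 were at least 1.5-fold higher (5.27% of all genes were) and none of 38 genes was as much lower (2.87%). VHL was at 335 with siltuximab plus IL-6 against 58.0 with IL-6 in Caov-3, or 2.23 on the log2 scale. CA12 was at 149 with siltuximab plus IL-6 against 83.9 with IL-6 in Caov-3, or 0.71 on the log2 scale, but 4 further probe sets, all below the median in Caov-3, were at -1.68 to -0.36. The remaining CA12 probe sets, below the median on every array of both lines, were at 1.52 and 0.96. SLC2A3 was at 0.33 and PLOD2 at 0.32. Lowest were SLC2A1, at 1077 with siltuximab plus IL-6 against 1491 with IL-6 in Caov-3, or -0.46 on the log2 scale, NDRG1 at -0.43, ENO2 at -0.36 and PFKP at -0.35. The dimmer further probe set of SLC2A1 gave 0.40 and that of PFKP 1.13.

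In SKOV-3 none of 35 genes was at least 1.5-fold higher (2.11% of all genes) or lower (2.46%) with the antibody. ENO2 was at 709.7 with siltuximab plus IL-6 against 516 with IL-6 in SKOV-3, or 0.45 on the log2 scale, and PKM at 7912 with siltuximab plus IL-6 against 6163 with IL-6 in SKOV-3, or 0.36 on the log2 scale. The further PKM probe set went the other way, at -0.14. ALDOC was at 0.33 and DDIT4 at 0.26, with 0.29 for DDIT4 in Caov-3. SLC2A3 was at 420.0 with siltuximab plus IL-6 against 596 with IL-6 in SKOV-3, or -0.49 on the log2 scale, and VHL, HK2 and LOX were at -0.34, -0.31 and -0.29. HK2 and LOX lay below the IL-6 array in both lines, with -0.35 and -0.25 in Caov-3. Further HK2 probe sets gave 0.04 and 0.17 in Caov-3 and -0.20 and 0.21 in SKOV-3. Those of LOX gave 0.002 and -0.33 in Caov-3 and 0.04 and -1.57 in SKOV-3, the latter of each pair from a dim probe set. Other genes were lower in both lines too, among them HIF1A at -0.23 in Caov-3 and -0.20 in SKOV-3 and SLC2A1 at -0.46 and -0.19. No gene of the 35 was past 0.32 the same way in both (1.32% of all genes were higher and 1.07% lower). VHL, SLC2A3 and ENO2 were past it opposite ways, where 3.55% of all genes were. Over both lines limma called none of the 38 genes, as of all 12290 (0%), with a smallest adjusted p of 0.983, and 6 of the 38 and 398 of all genes had an unadjusted p under 0.05. The medians were -0.08 in Caov-3 and -0.01 in SKOV-3, beside -0.09 and 0.01 over all genes.

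Set against untreated cells, siltuximab plus IL-6 left all measured genes, 38 in Caov-3 and 35 in SKOV-3, within 1.5-fold in both lines, where 2.67% and 2.61% of all genes were higher and lower in Caov-3 and 2.33% and 4.4% in SKOV-3. In both lines alike, none of 35 genes was past 0.32 the same way (2.13% of all genes were higher and 1.79% lower) or opposite ways (1.96%). The folds share the untreated arrays with the second comparison. In Caov-3 PFKFB4 was highest, at 607 with siltuximab plus IL-6 against 435 untreated in Caov-3, or 0.46 on the log2 scale, followed by CA12 at 0.43, EGLN1 at 0.20 and HK2 at 0.19, and EGLN3 was lowest, at 123 with siltuximab plus IL-6 against 165 untreated in Caov-3, or -0.38 on the log2 scale. SLC2A1, PDK1 and VHL were at -0.32, -0.31 and -0.30 there. Dimmer further probe sets in Caov-3 gave 0.85 for SLC2A1, 0.55 and 0.70 for PDK1 and -1.31 for VHL. Those of EGLN1 gave -0.09, -0.06 and 0.46, those of HK2 0.06 and -0.60, and those of CA12 -2.04 to 0.77. The further probe set of PFKFB4 gave 0.05 and that of EGLN3 -0.49. In SKOV-3, BNIP3L was highest at 0.29, before DDIT4 at 0.13, PFKFB4 at 0.11 and PGK1 at 0.09. GAPDH was lowest, at 30174 with siltuximab plus IL-6 against 42288 untreated in SKOV-3, or -0.49 on the log2 scale, followed by VHL at -0.41, P4HA2 at -0.34 and LDHA at -0.29. Dimmer further probe sets in SKOV-3 gave 0.10 for BNIP3L, 0.51 for PFKFB4 and -0.11 to 0.17 for PGK1. For VHL the further one gave 0.91, for P4HA2 they gave -0.26 and -0.09, and for GAPDH -0.57 and -0.58. GAPDH was thus highest on the untreated array of each line, also in its 3 array control probe sets. Over both lines limma called none of the 38 genes and none of all genes (0%), with a smallest adjusted p of 0.717 and an unadjusted p under 0.05 for 2 of the 38 and 705 of all genes.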

How the data were processed

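The deposited intensities are signals per probe set on a linear scale, made with Affymetrix Expression Console and MAS5 per the submitters' processing notes, with no versions given in the sources used here. The authors had scaled each array, as its mean after trimming 2% at each end was 500.06 to 500.07. Of 54675 probe sets, 62 were array controls, 41091 others had 1 symbol, 1801 several and 11721 none, and 41043 were matched to a current RefSeq gene. The number of arrays limits the precision.

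Signals were turned into log2 values after adding 17.1, the 20th percentile of named probe sets, and folds and differences are on that scale, which understates those of dim genes. Each gene stood for its probe set of highest mean log2 value (19775 genes). Genes entered the fit when at least 2 arrays reached their own median of named probe sets, and a fold between 2 arrays when the higher one did. Differences were fitted over all genes with limma 3.58.1 (R 4.3.3), line plus treatment, trended eBayes, which leaves 2 residual degrees of freedom, and p-values were adjusted by Benjamini-Hochberg with a threshold of 0.05. The fit was tested on simulated data. Figures used matplotlib 3.10.9 in Python 3.11.15.

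The genes, the further pathway list and the cell type markers were chosen with earlier results of these data known. By rule, values on every array were given for genes called at least 2-fold apart between the lines, for the 4 largest treatment folds in each direction, for genes alike in both lines and for a fixed set. Alternatives changed the pseudocount, scaling, filter, choice of probe set, prior variance, treatment term and arrays, and the probe set of highest mean linear signal was added after seeing the data.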

Additional observations from a re-analysis of the deposited data

Results flagged for a closer look

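The lines stood on opposite sides in 4 treatment folds, each past 0.32 on the log2 scale in both lines. These differences were not tested, since each fold is 1 array over 1 array. ENO2, which has 1 probe set, was with IL-6 against untreated at 0.48 in Caov-3 and at -0.62 in SKOV-3. With siltuximab plus IL-6 against IL-6, which uses the same IL-6 arrays, ENO2 was at -0.36 in Caov-3 and at 0.45 in SKOV-3. SLC2A3 in that comparison was at 0.33 in Caov-3 and at -0.49 in SKOV-3, and its further probe sets gave 0.48 and 0.44 in Caov-3 and -0.42 and -0.67 in SKOV-3. VHL was at 2.23 in Caov-3 and at -0.34 in SKOV-3, while its dim further probe set gave -0.64 in Caov-3 and 0.35 in SKOV-3.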

How the results depend on the processing

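Of the 38 line differences, 27 kept their direction and their side of the threshold under every alternative that gave them a value. Called higher in Caov-3 were 25 genes, 22 to 26 under the alternatives other than dropping probe sets ending in _x_at or _s_at, 13 with these dropped, and 23 to 25 with 1 array left out; called lower were 6, 5 to 6, 4 and 5 to 6 in the same order. Genes higher in Caov-3 without overlap likewise numbered 13 without those probe sets, where 20 of the 38 genes could be fitted. The 25 hold EGLN3, BNIP3 and LDHB, and the 27 hold BNIP3 and LDHB. These genes passed the filter through the Caov-3 arrays alone and had to differ, so their part in the counts is no test. Of the other 35 genes 22 were higher and 6 lower in the main setting. PFKL turned to 0.039 with cyclic loess. With 1 array left out SLC2A1 ranged from -0.044 to 0.091 and VHL from -0.77 to 0.52, each turning without an IL-6 array and SLC2A1 also without an untreated one. The cause was not tested.

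With 1 array left out, 0 to 2 genes were called lower with IL-6 and 0 to 1 higher with siltuximab plus IL-6 against IL-6. Those calls came without the SKOV-3 IL-6 array, where the IL-6 arm is the Caov-3 IL-6 array alone, with its low ACTB ratio. That lone array is assumed to vary like the other groups, which supply the spread with 1 residual degree of freedom. The genes were VHL at -2.56 and SLC2A3 at -0.54 with IL-6, and VHL at 2.20 with the antibody, among 451 and 207 called of 12159 genes. Genes at least 1.5-fold lower with IL-6 in Caov-3 numbered 2 with quantile normalization, 3 with the mean of probe sets, and 0 under the 75th percentile filter or without _x_at and _s_at probe sets. Higher with siltuximab plus IL-6 against IL-6 in Caov-3 were 1 with the pseudocount at the median, quantile normalization, cyclic loess, the mean of probe sets or the probe set of highest linear signal, and 0 with the 75th percentile filter or without _x_at and _s_at probe sets. Without those probe sets 1 gene was higher with IL-6 in SKOV-3, with the antibody against IL-6 in SKOV-3, and with the antibody against untreated in each line. Without the filter 1 was higher with IL-6 and 1 lower with the antibody against IL-6 in SKOV-3, with the pseudocount at the median 0 was lower with IL-6 in SKOV-3, and with the mean of probe sets 1 was lower with the antibody against untreated in Caov-3. No paired analysis was possible because each group has 1 array, and so no replicate numbers to pair, beyond the treatment that already served as a block in the line comparison. Signals near background limit BNIP3, LDHB and EGLN3 in SKOV-3.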
